A study of Mus musculus with 6 samples.

Results

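Symbols of the families that dock, prime and fuse membrane vesicles were taken from the deposited tables: names starting with Syt, Sytl, Cplx, Stx, Stxbp, Vamp, Snap, Syngr, Rims or Syn and a digit, or with Rab3, Unc13, Sv2, Rph3a, Doc2, Napa, Napb or Napg, and Nsf, Syp and Sypl. Syn1 was left out by name. Of the 11736 genes in the tables, 60 were members. The prefix Rab3 also took 8 genes from Rab30 to Rab36, which encode other small GTPases of membrane traffic. These are described apart, and 52 members remain without them. In the mouse annotation the same names cover 108 protein-coding genes, and the other 48, among them Snap25, Syt1 and Syp, are not analysed here. The tables hold genes with a mean of at least 1.005 RPKM in 1 group or both, and Stx11 and Syt6 reach that only in Cdyl-KO.

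The RNA came from somatic cells of XY mouse gonads (strain C57BL/6, stage E11.5), isolated on magnetic beads by the surface marker hCD271. Both groups carried Nr5a1-hCD271; Nr5a1 encodes a nuclear receptor of gonadal somatic cells. There were 3 libraries of genotype Cdyl-Het, which the series describes as heterozygous deficient for Cdyl, and 3 of genotype Cdyl-KO, described as homozygous deficient. No wild-type library is among them, so the reference group carries a deficiency as well. The labels do not say whether libraries came from separate embryos, pools or litters, so p-values reflect the scatter of these 6 samples alone, and that scatter may be technical.

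Vesicles fuse when a SNARE protein on the vesicle (an R-SNARE, such as a VAMP) zips together with SNAREs on the target membrane (Q-SNAREs, the syntaxins and SNAP relatives). Syntaxin-binding proteins guide syntaxin into the complex, RIM and Munc13 proteins prime vesicles at the membrane, complexin clamps and supports the complex, and synaptotagmins trigger fusion when calcium rises. The ATPase NSF, with SNAP adaptor proteins such as the product of Napa, takes the spent complex apart. Some members serve traffic in every cell, while others are best known from the regulated release of transmitter in neurons and hormone in endocrine cells. CDYL is a chromodomain protein that takes part in the repression of transcription.

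Of the 60 members, 8 rose and 2 fell in Cdyl-KO, and 50 did not pass the threshold (limma on log2 values, Benjamini-Hochberg adjusted p under 0.05 over all 11736 genes). Syt7, Cplx2, Rims2, Syt14, Stx1a, Rab3d, Sv2a and Snap47 rose, and Stx7 and Syngr2 fell. The members called higher made up 13.3% of the set and those called lower 3.33%, where the shares over all genes were 4.67% higher and 2.83% lower, or 7.50% in either direction. Without the Rab30 to Rab36 genes the counts were again 8 and 2, of 52. On the deposited values without scaling, 6 members rose and 7 fell, where 305 of all 11736 genes rose and 1558 fell. Of all genes called, 16.4% were then higher, against 62.3% with scaling. The median log2 change of the members was 0.01, beside -0.00 for all genes, and 32 members lay above 0 and 28 below. The groups of 3 libraries did not overlap for 18 members on the higher side (30.0%, where 17.0% of all genes did so) and for 7 on the lower side (11.7%, where 14.5% did). Stx11 and Syt6 are among the 18 and among the 32 above 0, and their direction was fixed by the filter on level.

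Values are scaled RPKM, a read density per gene length and library size adjusted by a factor per library, so levels can be compared between genes. Changes are differences of log2(scaled RPKM + 1), Cdyl-KO minus Cdyl-Het, a scale that understates the change of weakly expressed genes. Where 6 values are given, they are Cdyl-Het replicates 1 to 3 against Cdyl-KO replicates 1 to 3. Where the groups of a gene are said not to overlap, 17.0% of all genes did so on the higher side and 14.5% on the lower side. Before scaling, the median log2 change of all genes was -0.12, and changes are relative to that shift. The depth implied by the spacing of low values was 34.6 to 45.2 M reads per library. Cdyl itself was at 7.77 to 8.22 in Cdyl-Het and 6.77 to 7.07 in Cdyl-KO (adjusted p = 0.0702), and since no label says which part of the gene was altered, this does not check the genotypes. The gonadal genes Nr5a1, Wt1 and Gata4 were at 66.3 to 94.0 in every library.

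**Figure D1:**
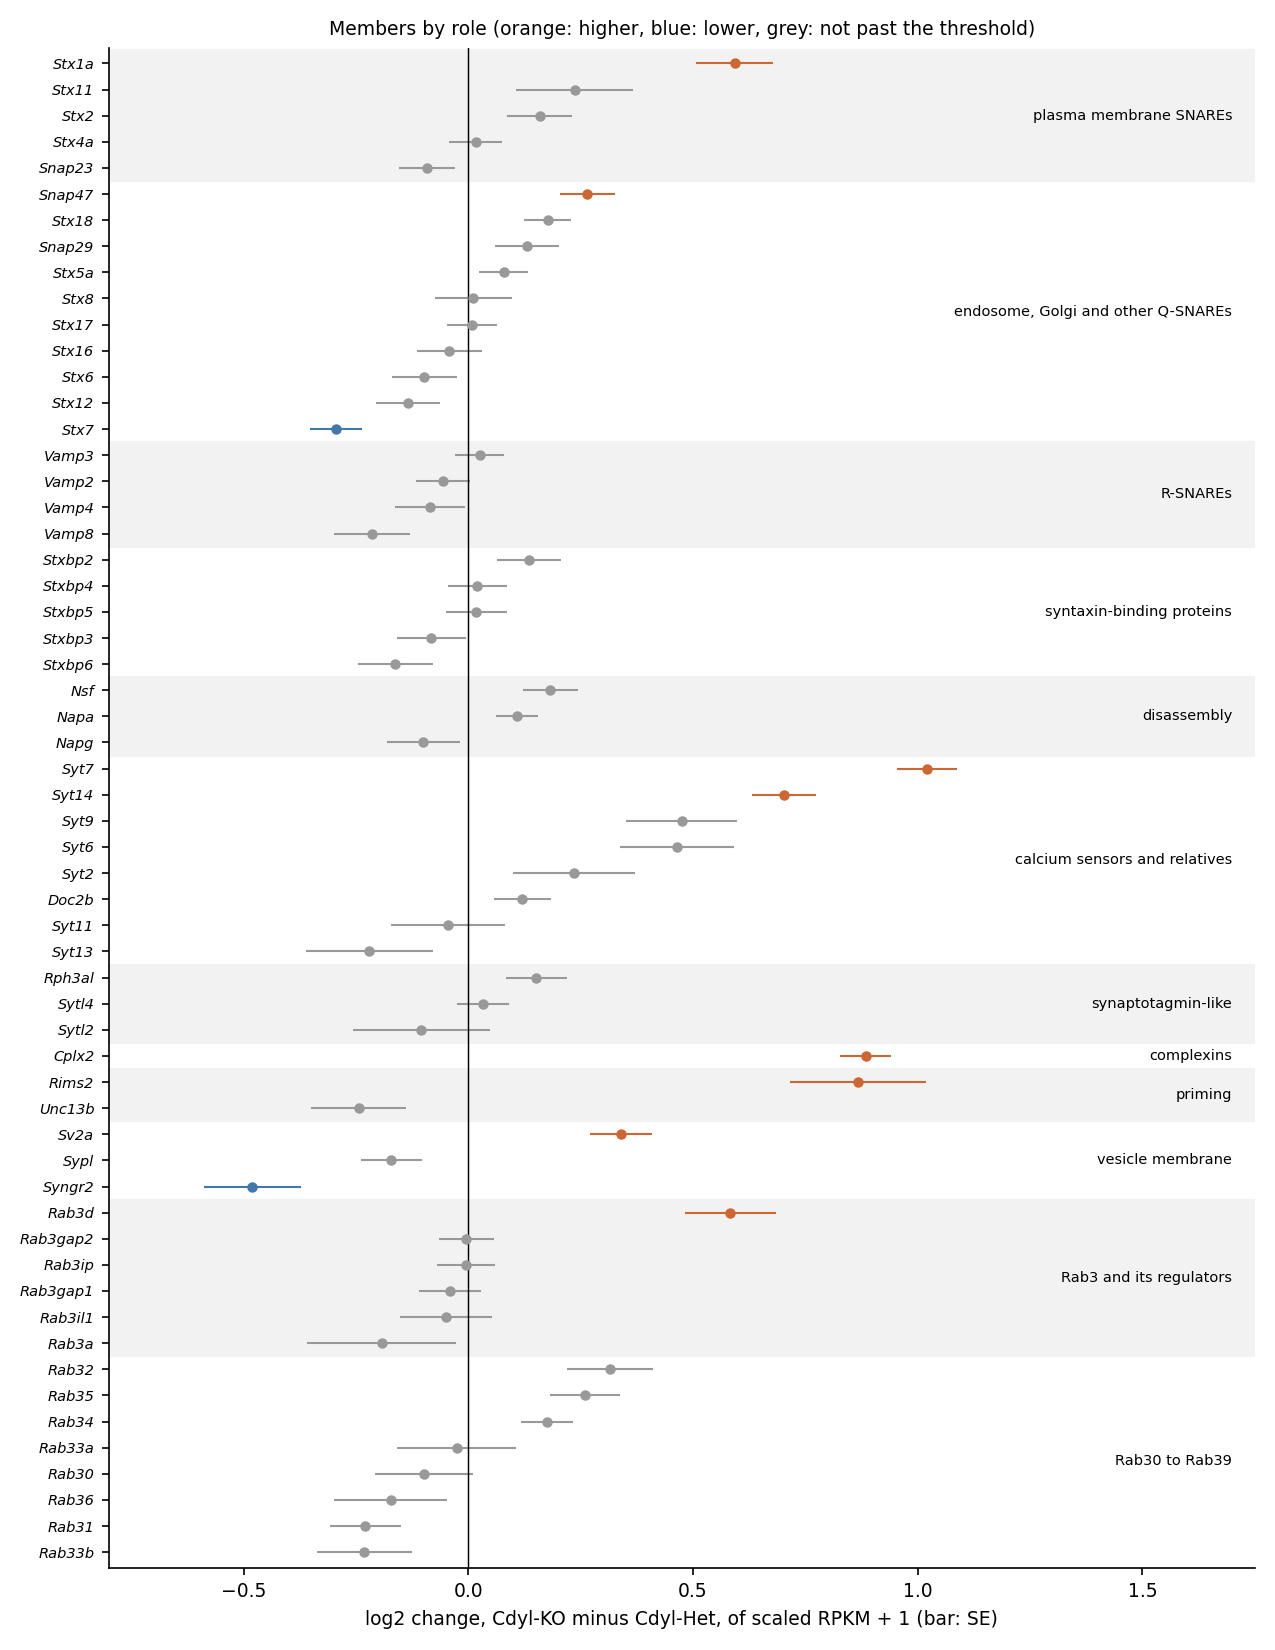
Log2 change, Cdyl-KO minus Cdyl-Het, of the members reported (points; bars are SE), grouped by role on the vertical axis. Orange points rose and blue points fell past the threshold; grey points did not pass, the highest of them being Syt9 at 0.47.

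Markers of other cell types were read in the same libraries. Of 20 markers of neurons, 10 are analysed here; 2 of them rose, 0 fell and 8 did not pass. Nefm was at 5.85, 5.66 and 6.53 against 11.7, 12.1 and 10.8, and Tubb3 at 1.33, 0.709 and 1.87 against 3.24, 4.61 and 4.22. The summed level of the 10 was 21.2 to 27.9 in Cdyl-Het and 29.1 to 35.0 in Cdyl-KO, while on the deposited values without scaling the sums overlapped, at 22.1 to 29.6 and 27.8 to 33.9. Without Nefm and Tubb3, the other 8 summed to 14.8 to 19.5 in Cdyl-Het and 14.2 to 18.3 in Cdyl-KO. Nefm and Tubb3 were taken out because they were called higher, so this sum cannot show whether the rise was limited to them. Among these 8, Gap43 was lower without overlap, at 1.96, 2.29 and 1.82 against 1.04, 1.705 and 1.41 (adjusted p = 0.151), and Nefh, Nefl and Hand2 had log2 changes of -0.57, -0.06 and -0.15 with overlapping groups. Map2, Elavl2, Ina and Stmn2 had log2 changes of 0.14, 0.44, 0.54 and 0.34. Groups did not overlap for Map2, Elavl2 and Ina, on the higher side (adjusted p = 0.340, 0.119 and 0.0714), and overlapped for Stmn2. Elavl2, Ina and Stmn2 reached a mean of 1 RPKM only in Cdyl-KO, so the filter fixed their direction. The part of such cells in the change of the members was not tested. In bulk RNA, fewer cells of a type and less RNA per cell cannot be told apart. The other 10 neuronal markers, among them Elavl3, Elavl4, Dcx and Isl1, and all 7 markers of glia and neural crest are not analysed here. Of 10 endothelial markers, 8 are analysed; 4 fell (Cdh5, Kdr, Tek and Egfl7) and 0 rose, and the sum was 32.9 to 35.4 in Cdyl-Het and 20.8 to 23.7 in Cdyl-KO. It moved with Stx7 and Syngr2, and its part in their change was not tested. Blood markers, 4 of 10 of them globin genes that are analysed, summed to 40.1 to 214.5 and 43.1 to 122.2 with 0 calls. Germ cell and muscle markers gave 0 calls among 2 genes each, Pax8 rose among 4 mesonephric markers, and Nr0b1, Lhx9 and Emx2 rose among 8 gonadal markers. Beside these counts, 4.67% of all genes were called higher and 2.83% lower. Groups did not overlap for 17.0% of all genes on the higher side and 14.5% on the lower side.

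Promoter sequences from RefSeq (GRCm38.p6) were at hand for 48 members, in 63 windows of 300 bases that run from 250 bases before to 50 bases after a start site. Syt7 and Rims2 were among the 12 members with none. Of the members that rose, Stx1a, Cplx2 and Syt14 passed under every alternative tried and have a window, and the bases before their start sites are shown because these genes moved together. Each is written 5′ to 3′ on the gene's strand with CG dinucleotides in capitals.
Stx1a promoter, chr5:135023232-135023481, plus strand: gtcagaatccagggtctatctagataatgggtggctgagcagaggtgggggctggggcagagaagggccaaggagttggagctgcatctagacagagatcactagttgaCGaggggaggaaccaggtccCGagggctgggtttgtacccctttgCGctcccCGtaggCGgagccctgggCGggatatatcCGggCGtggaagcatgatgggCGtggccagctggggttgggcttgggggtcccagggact
Cplx2 promoter, chr13:54302306-54302555, plus strand: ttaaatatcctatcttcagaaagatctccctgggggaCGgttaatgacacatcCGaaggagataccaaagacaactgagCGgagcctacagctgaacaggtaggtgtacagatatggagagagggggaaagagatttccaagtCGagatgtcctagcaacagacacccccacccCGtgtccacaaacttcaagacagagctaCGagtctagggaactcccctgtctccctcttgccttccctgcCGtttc
Syt14 promoter, chr1:193035776-193036025, minus strand: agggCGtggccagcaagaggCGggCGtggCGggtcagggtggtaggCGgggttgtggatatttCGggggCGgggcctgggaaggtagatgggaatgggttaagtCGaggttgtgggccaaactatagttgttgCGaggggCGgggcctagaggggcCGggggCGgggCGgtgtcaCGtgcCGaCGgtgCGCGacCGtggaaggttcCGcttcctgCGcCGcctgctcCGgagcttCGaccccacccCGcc
The CG dinucleotides in these stretches number 9 for Stx1a, 7 for Cplx2 and 25 for Syt14, so the 3 differ widely in CG density. The RefSeq start used for Cplx2 lies 68.8 kb upstream of the gene's start in GENCODE, so its sequence is not the one before the GENCODE coordinates given with the gene. The half-sites of RE1, the element that the repressor REST binds in neuronal genes, were searched on both strands as TTCAGCACC and GGACAG, which do not overlap. TTCAGCACC was in 0 of the 63 member windows and in 0.37% of all 32851 promoter windows. A run this rare would mostly be absent from 63 windows in any case, so its absence carries no information. GGACAG was in 14 member windows (22.22%, and 22.18% of all windows). All 14 were of members that did not pass the threshold, which hold 54 of the 63 windows, and some of these members have several windows. Neither run of letters was in the 6 windows of members that rose, which are too few to show a difference. Sites outside the windows were not searched, and binding of REST was not tested.

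Among the SNAREs of the plasma membrane, 1 of 6 members rose, 0 fell and 5 did not pass. Stx1a, which encodes syntaxin-1A, the target-membrane SNARE of neurons and endocrine cells (chromosome 5, 135023482 to 135051100, mm10), was at 8.96, 9.83 and 7.58 scaled RPKM in Cdyl-Het replicates 1 to 3 and at 13.8, 13.5 and 13.8 in Cdyl-KO. All Cdyl-KO libraries lay above all Cdyl-Het libraries and close to each other, with a ratio of means of 1.56 (log2 change 0.59, SE 0.09, adjusted p = 0.0120).

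The more widely used SNAREs of the plasma membrane did not pass. Stx4a, the syntaxin of constitutive and insulin-driven exocytosis, was at 11.8, 12.3 and 11.98 in Cdyl-Het, against 13.1, 11.7 and 11.7 in Cdyl-KO (adjusted p = 0.890). Snap23, the widely expressed relative of Snap25, was at 12.04, 11.1 and 10.7 against 10.7, 9.98 and 10.9 (adjusted p = 0.406). Groups overlapped for both genes. Stx2 and Stx11 did not pass either, at log2 changes of 0.16 and 0.24. The groups of Stx11 did not overlap, on the higher side, and it was analysed only through its level in Cdyl-KO, since its deposited Cdyl-Het mean was under 1 RPKM.

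Among 10 Q-SNAREs of endosomes, the Golgi and other membranes, 1 rose, 1 fell and 8 did not pass. Snap47, a broadly expressed member of the SNAP family (chromosome 11, 59407134 to 59451186), was at 12.5, 11.4 and 11.6 in Cdyl-Het, against 15.2, 14.6 and 13.6 in Cdyl-KO. Its groups did not overlap, and the difference was small (log2 change 0.26, SE 0.06, adjusted p = 0.0461). Exons of Snap47 overlap those of Jmjd4, which was at 3.73 to 4.14 in Cdyl-Het and 3.38 to 3.73 in Cdyl-KO. Stx7, a syntaxin of late endosome and lysosome fusion (chromosome 10, 24149302 to 24190222), was at 5.63, 5.95 and 5.89 against 4.80, 4.37 and 4.51. Stx7 fell, and every Cdyl-KO library lay below every Cdyl-Het library (log2 change -0.29, SE 0.06, adjusted p = 0.0271). Stx12, an endosomal syntaxin with the highest level in the group, was at 17.0, 17.4 and 15.9 against 16.5, 14.0 and 15.1, with overlapping groups (adjusted p = 0.289). The other 7 members, Snap29, Stx5a, Stx6, Stx8, Stx16, Stx17 and Stx18, had log2 changes of -0.10 to 0.18, and groups overlapped for all but Stx18.

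None of the 4 R-SNAREs passed the threshold (0 higher and 0 lower). Vamp2, the synaptobrevin that pairs with syntaxin-1A at synapses, was at 6.67, 5.98 and 6.40 in Cdyl-Het, against 6.33, 5.81 and 6.06 in Cdyl-KO (log2 change -0.06, adjusted p = 0.606). Vamp3, its counterpart in recycling endosomes of most cells, was at 12.6, 13.3 and 12.9 against 12.8, 13.9 and 12.9 (adjusted p = 0.813). Both had groups that overlapped. Vamp4, of the trans-Golgi network, had a log2 change of -0.09 and did not pass, and Vamp8, a SNARE of endosomes and secretory granules, had one of -0.21 with groups that did not overlap (adjusted p = 0.169).

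The syntaxin-binding proteins and the disassembly machinery did not pass either (0 of 6 and 0 of 3). Stxbp2, which acts in granule release from blood and epithelial cells, was at 8.49, 9.18 and 8.32 in Cdyl-Het, against 9.39, 8.96 and 10.5 in Cdyl-KO (adjusted p = 0.286). Groups overlapped for Stxbp2, while those of Stxbp6 did not, at a log2 change of -0.16. Nsf, the ATPase, was at 4.13, 4.06 and 4.43 against 4.81, 5.17 and 4.75 (adjusted p = 0.116). Napa, its adaptor, was at 13.5, 13.9 and 13.6 against 15.2, 14.7 and 14.5 (adjusted p = 0.204). Groups did not overlap for Nsf and Napa, on the higher side, while those of the related adaptor Napg did, at a log2 change of -0.10.

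Among the calcium sensors and their relatives, 2 of 8 members rose, 0 fell and 6 did not pass. Syt7, a slow synaptotagmin with high affinity for calcium that acts in granule and lysosome exocytosis (chromosome 19, 10389090 to 10453180), was at 3.89, 4.12 and 4.55 scaled RPKM in Cdyl-Het, against 9.13, 9.39 and 10.04 in Cdyl-KO. The groups were wide apart, with a ratio of means of 2.27 (log2 change 1.02, SE 0.07, adjusted p = 0.000733). Syt14, a synaptotagmin thought not to bind calcium (chromosome 1, 192891233 to 193035775), was at 1.72, 1.74 and 1.57 against 3.41, 3.35 and 3.30. Its 3 libraries lay close together in each group, with means of 1.68 ± 0.0914 and 3.35 ± 0.0571 (SD, n = 3; log2 change 0.70, SE 0.07, adjusted p = 0.00420).

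Syt9, a calcium sensor of dense-core granules, and Syt6 were also higher in each Cdyl-KO library than in any Cdyl-Het library but did not pass. Syt9 was at 0.945, 0.938 and 1.10 against 1.49, 1.69 and 2.17 (log2 change 0.47, adjusted p = 0.0639), and Syt6 was at 0.696, 0.505 and 0.795 against 1.24, 1.33 and 1.30 (log2 change 0.46, adjusted p = 0.0726). Syt6 had a deposited Cdyl-Het mean under 1 RPKM and was analysed only through Cdyl-KO. Syt2, a fast synaptic sensor, and Syt11 and Syt13, which lack calcium binding, had overlapping groups and log2 changes of 0.23, -0.04 and -0.22. The most abundant member of the whole set, Doc2b, a soluble calcium sensor of spontaneous and hormone release, was at 18.3, 20.3 and 17.6 in Cdyl-Het, against 20.1, 20.2 and 20.9 in Cdyl-KO, with overlapping groups (adjusted p = 0.284). Summed over the 7 synaptotagmins, the level was 11.4 to 14.0 in Cdyl-Het and 19.6 to 21.6 in Cdyl-KO, and Syt7 held 32.2% to 36.2% and 43.4% to 46.9% of it. This sum takes in Syt7 and Syt14, which were called higher, and Syt6, which was analysed only through Cdyl-KO. It does not show a rise of every synaptotagmin. Exons of Syt7 overlap those of Gm26859, and those of Doc2b overlap Gm12339.

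Cplx2, which encodes a complexin, a small protein that binds the assembled SNARE complex (chromosome 13, 54371349 to 54383917), had the smallest adjusted p of the set. Its level was 4.20, 4.17 and 4.59 in Cdyl-Het, against 8.88, 8.98 and 8.58 in Cdyl-KO. The lowest Cdyl-KO library was well above the highest Cdyl-Het library, with a ratio of means of 2.04 (log2 change 0.88, SE 0.06, adjusted p = 0.000604). It was the single complexin among the members. Rims2, a RIM scaffold that binds Rab3 and positions vesicles at release sites (chromosome 15, 39198261 to 39684372), was at 1.18, 0.959 and 1.91 against 3.49, 3.25 and 2.96. The Cdyl-Het libraries of Rims2 were spread, replicate 3 being the highest, and still lay below all Cdyl-KO libraries (ratio of means 2.39; log2 change 0.87, SE 0.15, adjusted p = 0.02003). With a pseudocount of 0.1 the log2 change of Rims2 was 1.25, that of Syt7 1.17 and that of Cplx2 1.01, so the order of the 3 depends on the pseudocount. Unc13b, a Munc13 priming protein, did not pass, at 1.65, 1.84 and 1.89 against 1.16, 1.56 and 1.37 (log2 change -0.24, adjusted p = 0.201), although its groups did not overlap.

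Of 3 proteins of the vesicle membrane, 1 rose, 1 fell and 1 did not pass. Sv2a, a glycoprotein of synaptic and endocrine vesicles (chromosome 3, 96181151 to 96195521), was at 3.26, 3.05 and 3.21 in Cdyl-Het, against 3.90, 4.52 and 4.44 in Cdyl-KO (log2 change 0.34, SE 0.07, adjusted p = 0.0328). Syngr2, the synaptogyrin of non-neuronal cells (chromosome 11, 117809668 to 117814283), was at 5.99, 7.78 and 8.18 against 4.82, 4.70 and 5.26 (log2 change -0.48, SE 0.11, adjusted p = 0.0418). Groups did not overlap for Sv2a or Syngr2, and Cdyl-Het replicate 1 was the lowest of its group for Syngr2. Sypl, a synaptophysin relative found in most tissues, was at 3.89, 4.31 and 4.06 against 3.48, 3.77 and 3.31 and did not pass (log2 change -0.17, adjusted p = 0.171), although its groups did not overlap. Exons of Syngr2 overlap those of Gm20708.

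Rab3 GTPases mark secretory vesicles, and 1 of the 6 members of this group rose while 5 did not pass. Rab3d, the Rab3 of secretory granules in exocrine cells (chromosome 9, 21907491 to 21918192), was at 1.90, 2.41 and 2.36 in Cdyl-Het libraries and 4.19, 3.95 and 3.34 in Cdyl-KO libraries. The ratio of means was 1.72, and the groups did not overlap (log2 change 0.58, SE 0.10, adjusted p = 0.0194). Rab3a, the neuronal Rab3, was at 2.43, 2.71 and 1.68 against 1.82, 2.37 and 1.41 (log2 change -0.19, adjusted p = 0.511), with groups that overlapped. Rab3d accounted for 43.9% to 58.4% of the summed level of this pair in Cdyl-Het and 62.5% to 70.3% in Cdyl-KO. Among the regulators, Rab3ip was at 6.52, 6.51 and 5.95 against 6.01, 6.75 and 6.13 (adjusted p = 0.967). Rab3gap1, a subunit of the GTPase-activating complex, was at 5.38, 4.69 and 4.68 against 4.96, 4.56 and 4.73 (adjusted p = 0.755). Rab3gap2 and Rab3il1 had log2 changes of -0.00 and -0.05, and groups overlapped for all 4 regulators.

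The synaptotagmin-like proteins, which tie granules with Rab27 to the membrane, and Rph3al, grouped with them here, gave 0 calls among 3 members. Rph3al, a Rab-binding protein of endocrine granules, was at 5.71, 6.41 and 5.67 in Cdyl-Het, against 6.49, 6.47 and 7.13 in Cdyl-KO (adjusted p = 0.212), with groups that did not overlap. Sytl4, called granuphilin in insulin-secreting cells, was at 4.30, 4.17 and 4.57 against 4.52, 4.49 and 4.38 (adjusted p = 0.763), and Sytl2 had a log2 change of -0.10. The 8 genes from Rab30 to Rab36 also gave 0 calls, with log2 changes of -0.23 to 0.32. Rab35, of recycling endosomes, was at 10.6, 12.5 and 11.03 against 14.9, 13.2 and 13.4 (adjusted p = 0.0920). Rab31, of transport between the Golgi and endosomes, was at 12.2, 14.9 and 12.9 against 11.4, 10.5 and 11.6 (adjusted p = 0.128). Of these 8 genes, groups did not overlap for Rab32, Rab34 and Rab35 on the higher side (37.5%, where 17.0% of all genes did so). On the lower side they did not overlap for Rab31 alone (12.5%, where 14.5% of all genes did so).

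**Figure D2:**
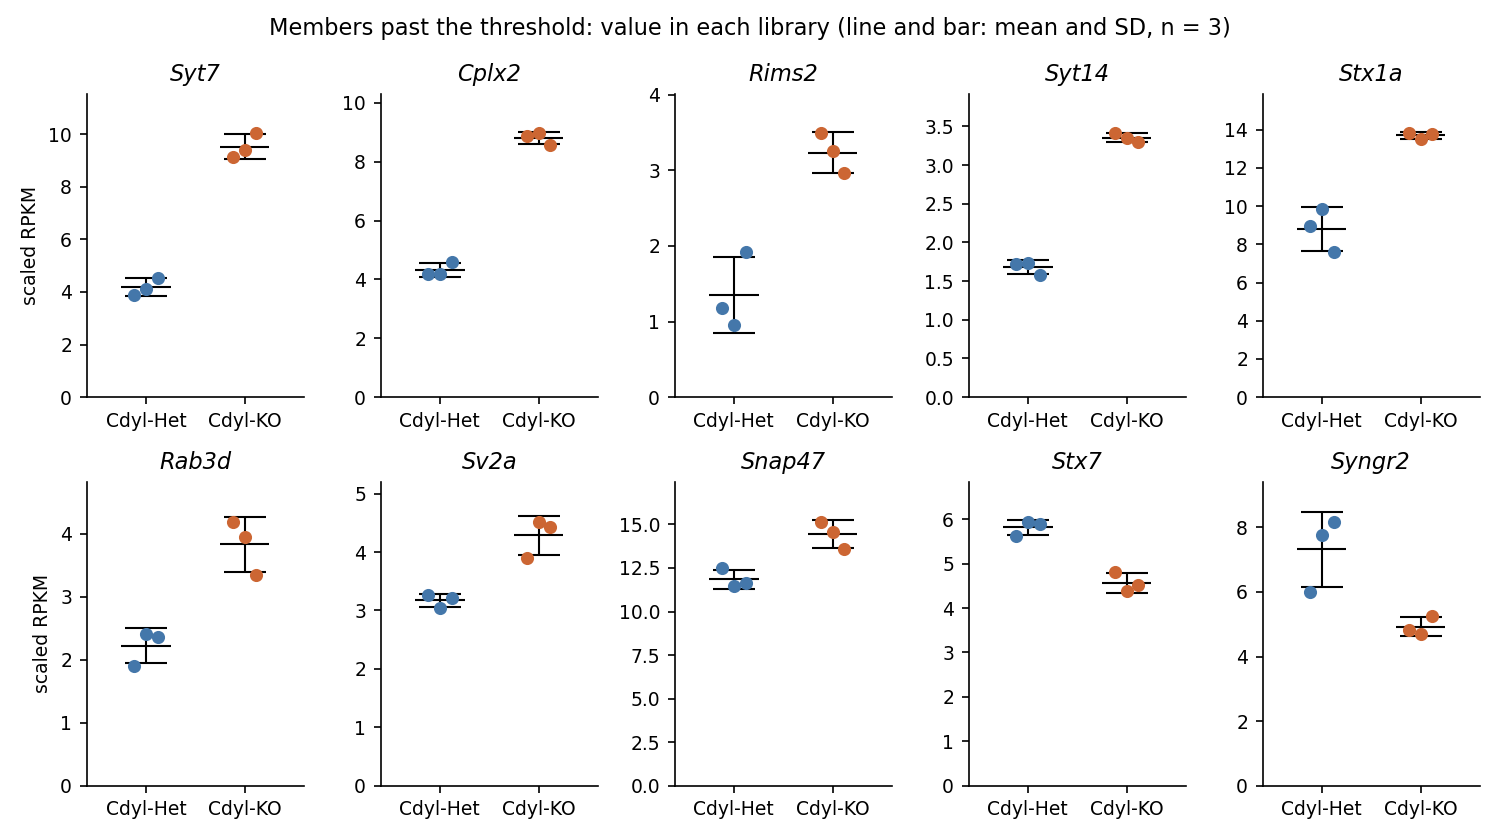
Scaled RPKM (vertical axis of each panel, starting at 0) of the 10 members past the threshold in each Cdyl-Het and Cdyl-KO library, with the mean and SD over 3 libraries as lines. In no panel do the groups overlap: 8 members lie higher in Cdyl-KO, and Stx7 and Syngr2 lie lower.

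Of the 8 that rose, Stx1a and Snap47 had means over all libraries of 11.2 and 13.1 scaled RPKM, and the other 6 lay between 2.29 and 6.85 scaled RPKM, as the plot of change against level shows. Summed over the 8 members, the level was 37.4 to 37.7 in the Cdyl-Het libraries and 60.0 to 62.0 in the Cdyl-KO libraries, and here the choice of members fixes the direction. The other 52 members, left after taking out those called higher, summed to 284 to 293 in Cdyl-Het and 289 to 291 in Cdyl-KO. On the deposited values without scaling these 52 summed to 297 to 307 in Cdyl-Het and 270 to 280 in Cdyl-KO, lower without overlap. Over all 60 members the sum was 322 to 331 in Cdyl-Het and 350.2 to 351 in Cdyl-KO with scaling, but 337 to 346 and 326 to 339 on the deposited values, so the separation and direction of the sum depend on the scaling.

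**Figure D3:**
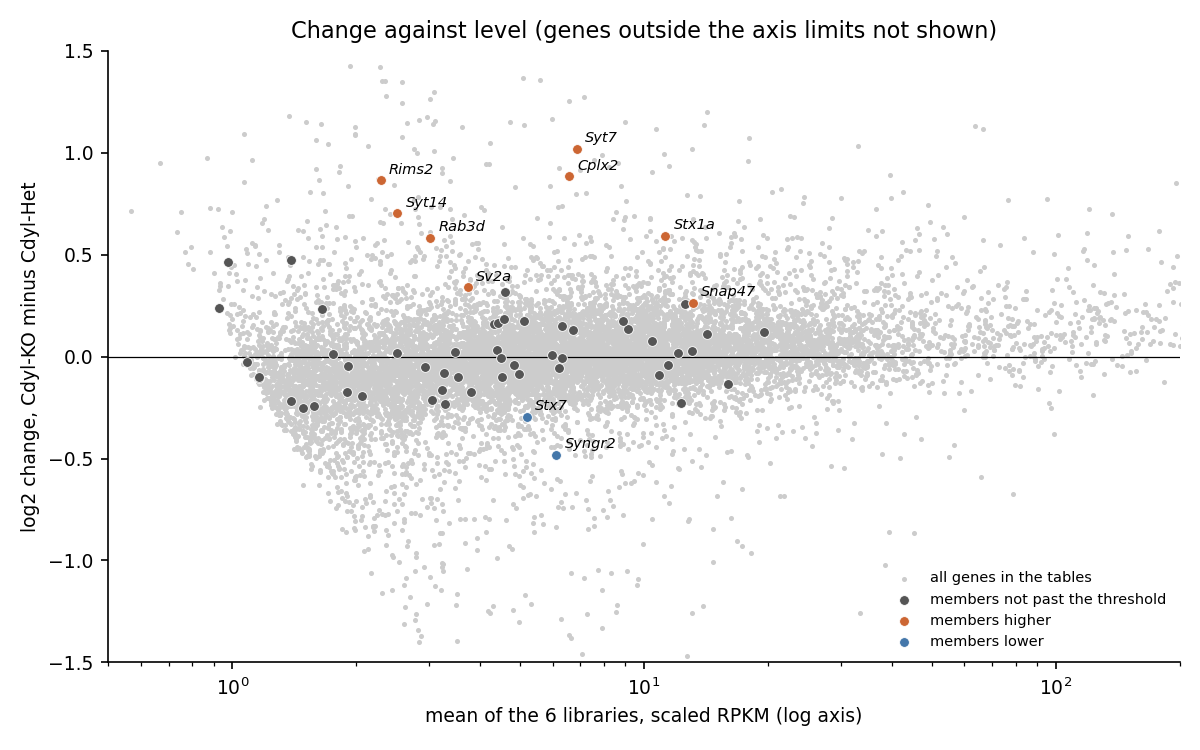
Log2 change, Cdyl-KO minus Cdyl-Het, against the mean of the 6 libraries in scaled RPKM (log axis) for all genes within the axis limits (light grey) and the 60 members (dark grey, orange for higher, blue for lower). Syt7 and Cplx2, at means of 6.85 and 6.57, lie at 1.02 and 0.88, and Rims2, at a mean of 2.29, lies at 0.87.

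Other genes of vesicle fusion, from a list of 76 of which 51 are analysed here, gave 3 rises, 0 falls and 48 that did not pass, with a median log2 change of -0.03. The 3 are 5.88% of the 51, where 4.67% of all genes were higher. With a minimum of 1 RPKM in both groups, which takes out Syn1, 2 of 50 rose. Use1, a SNARE of retrograde traffic to the endoplasmic reticulum, was at 19.3, 18.7 and 17.9 in Cdyl-Het, against 24.0, 21.2 and 23.6 in Cdyl-KO (log2 change 0.29, SE 0.06, adjusted p = 0.0420). Scamp5, a secretory carrier membrane protein of the brain, was at 4.52, 3.97 and 4.98 against 7.89, 7.99 and 8.58 (log2 change 0.74, SE 0.08, adjusted p = 0.00515). Syn1, the synapsin that coats synaptic vesicles, was at 0.788, 0.878 and 1.06 against 2.86, 3.45 and 2.85 (log2 change 1.09, SE 0.10, adjusted p = 0.00346), and it is in the tables only through Cdyl-KO, since its deposited Cdyl-Het mean was under 1 RPKM. Groups did not overlap for any of the 3. By role, the rises were 1 of 17 other SNAREs and their regulators, 0 of 10 exocyst subunits, 0 of 12 priming and active zone proteins and 2 of 12 other vesicle membrane and C2-domain proteins.

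With single libraries left out, Syt7, Cplx2, Syt14 and Stx1a passed each time (adjusted p up to 0.00737, 0.00585, 0.0241 and 0.0441), and the other 6 did not. The count of members that rose was 4 with replicate 2 of Cdyl-Het or of Cdyl-KO left out and 5 with any other library left out. The count that fell was 1 without Cdyl-Het replicate 1 and 0 without any other. Rab3d missed the threshold without replicate 2 or 3 of Cdyl-Het or 1 or 2 of Cdyl-KO (adjusted p = 0.0541, 0.0651, 0.0684 and 0.0627). Rims2 missed it without every library but Cdyl-Het replicate 3 (adjusted p = 0.0548, 0.0582, 0.0704, 0.0622 and 0.0501 leaving out replicates 1 and 2 of Cdyl-Het and 1, 2 and 3 of Cdyl-KO in turn). Sv2a missed it without every library but Cdyl-KO replicate 1 (adjusted p = 0.0662, 0.0985, 0.0975, 0.0966 and 0.0944), and Syngr2 without every library but Cdyl-Het replicate 1 (adjusted p = 0.120, 0.128, 0.112, 0.108 and 0.0759). Snap47 and Stx7 passed in none of these fits (adjusted p of 0.0585 to 0.140 and 0.0517 to 0.0918 over the 6 libraries left out). Without scaling, Sv2a and Snap47 did not pass (adjusted p = 0.0698 and 0.197), and Snap23, Stx12, Sypl, Vamp8 and Rab31 fell. Direction was the same under all alternatives for the 10 members that passed.

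**Figure D4:**
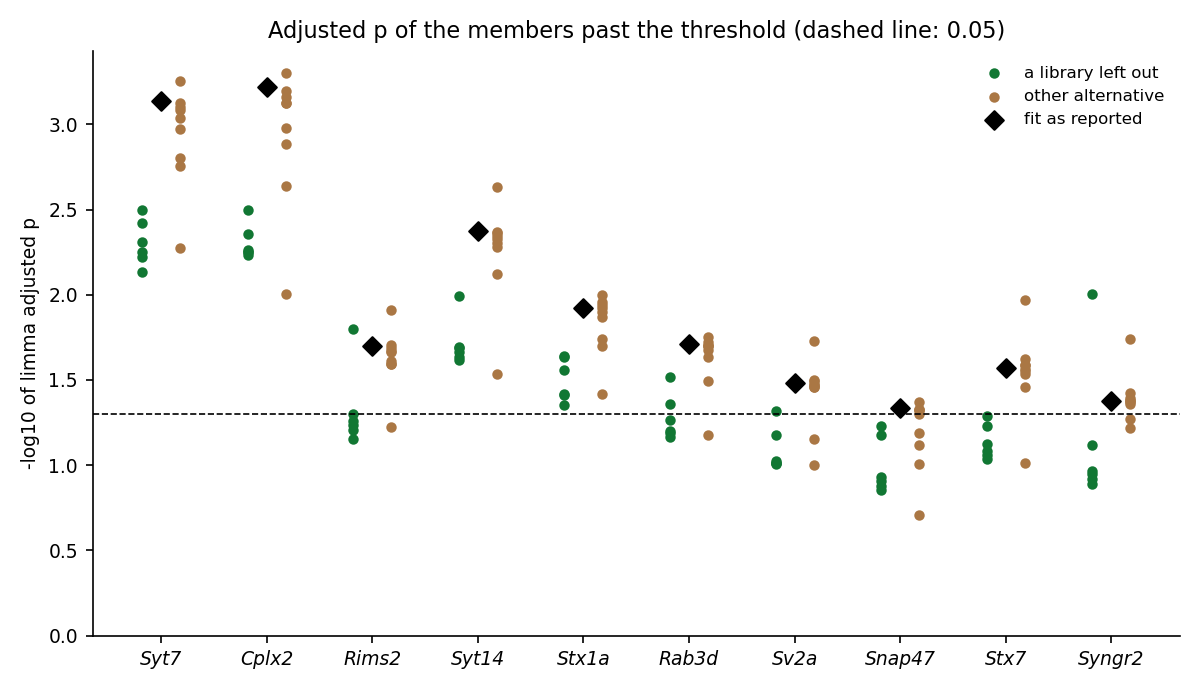
Limma adjusted p, as -log10 on the vertical axis, of the 10 members past the threshold, in the fit as reported (diamonds), with a library left out (green, 6 points each) and under the other alternatives (brown). The dashed line is 0.05; every point of Syt7, Cplx2, Syt14 and Stx1a lies above it, and each other member has points below it.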

How the data were processed

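RNA of 3 Cdyl-Het and 3 Cdyl-KO samples was sequenced from libraries made with a stranded total RNA kit for very small inputs, per the labels' protocols. The submitters' processing notes name STAR, Subread's featureCounts 1.6.4 and mm10. The annotation, strand setting, gene filter and the step from counts to values were not given in the sources used here. As deposited, there is 1 RPKM value per gene and library, a unit the authors do not name, inferred because the values are not whole and sum to no fixed total. Each gene has a mean of at least 1.005 in 1 group or both.

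Values were divided by a trimmed mean of log ratios against Cdyl-Het replicate 1 (30% of ratios and 5% of levels trimmed per end), giving scaled RPKM. The log2 of (scaled RPKM + 1) entered limma 3.58.1 (R 4.3.3) with genotype as sole covariate and a mean-variance trend, two-sided, adjusted over 11736 genes; the script was tested on simulated data. Depth was read from short single-exon genes, whose values are whole multiples of a step (86.2% to 87.8% of low values within 0.02). Positions are GENCODE M21 (GRCm38, mm10; 98.3% of symbols matched). Of the members, 2 are counted but not reported by name. The members and lists were chosen with earlier results of these data known. Members with full values were those past the threshold, the 2 of highest level per role and 12 chosen genes, of which 9 are in the tables. Alternatives were other scalings, pseudocount, filters, no trend, a replicate block and each library left out; 2, a scaling reference and a filter on both groups, were chosen after seeing the data.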

Additional observations from a re-analysis of the deposited data

How the results depend on the processing

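Over 15 alternatives, the count of genes past the threshold was 880 (548 higher, 332 lower) as reported, 1863 (305 and 1558) without scaling and 337 (209 and 128) with the replicate number as a block. With a library left out it was 253 to 647 (197 to 387 higher and 56 to 260 lower). Members higher were 8 as reported, 9 with cyclic loess, 9 without trend, 4 with the replicate block and 4 to 5 with a library left out. The numbers were the same when Rab30 to Rab36 are set aside. Members lower were 2 as reported, 7 without scaling (6 without Rab30 to Rab36), 1 without trend, 0 with the replicate block and 0 to 1 with a library left out. Of the other vesicle fusion genes, 2 to 3 were higher and 0 to 1 lower with a library left out; 9 were lower without scaling, 1 with cyclic loess and 1 without trend. The cause of these moves was not tested. Same-numbered libraries of the groups did not deviate together (correlations of deviations -0.052, -0.27 and -0.0526), so the block rests on a shared number only. Of the alternatives chosen after seeing the data, scaling against the library nearest the mean upper quartile took Snap47 out (adjusted p = 0.0501, 7 members higher), and a minimum of 1 RPKM in both groups left the counts at 8 and 2. Snap47 passed in 4 of the 15 alternatives, and it also missed the threshold with cyclic loess, without trend and with the replicate block. Calls of genes near 1 RPKM rest on about 34.6 to 45.2 reads per kilobase of gene in a library, from the implied depths.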

Other observations

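The 60 members were spread over the range of levels. With all genes cut by mean level into 4 bins of equal size, from low to high, they numbered 18, 21, 14 and 7, and those past the threshold numbered 2, 3, 4 and 1, where the shares called among all genes were 5.11%, 6.68%, 7.50% and 10.7%. Syt9 and Syt6, which lay higher in Cdyl-KO, passed with cyclic loess scaling (adjusted p = 0.0289 and 0.0164) and without trend (adjusted p = 0.0392 and 0.0236), and not in the fit as reported. Syt6 was analysed only through Cdyl-KO, so the filter on level fixed its direction. Stx18, a SNARE of the endoplasmic reticulum, lay higher in every Cdyl-KO library (log2 change 0.18, adjusted p = 0.0918), and its exons overlap those of Nsg1, a neuronal endosome protein, which was at 2.58 to 3.37 in Cdyl-Het and 4.47 to 5.06 in Cdyl-KO.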
